A study of Mus musculus with 6 samples.

Results

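The guidance genes described here are the protein-coding genes of the semaphorin, plexin, neuropilin, ephrin, Eph, Slit, Robo, netrin and Unc5 families, chosen by the start of the gene symbol. The rule found 69 genes among the 52636 genes of the count table, 34 of them ligands, 33 receptors and 2 (Unc50 and Unc5cl) that share a symbol stem with the Unc5 receptors without being netrin receptors. RNA of cultured J110 and SSM3 cells had been sequenced from the 3′ end of polyadenylated transcripts in 3 biological replicates of each line, with totals from 4200785 to 5416305 counts per library. J110 came from mammary tumours of mice with an AIB1 transgene driven by the MMTV promoter, and SSM3 from mammary tumours of 129SvEv mice. No treatment was given to either, and each group is 1 line, so line, strain, genotype and culture medium (SSM3 cells had more serum and more CO2) cannot be told apart.

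Guidance molecules steer growing axons and also act on vessels and epithelia, where they govern adhesion, repulsion and movement. Secreted class 3 semaphorins bind neuropilins, which pair with plexins to signal, while most membrane-bound semaphorins bind plexins directly. Ephrins are carried on the cell surface, the A type by a lipid anchor and the B type by a membrane-spanning stretch, and bind Eph receptor kinases on touching cells. Slits bind Robo receptors and netrins bind Unc5 receptors and DCC, and in the mammary gland netrin, Slit and Eph signalling are known to take part in the shaping of ducts.

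J110 and SSM3 stand here for the libraries so labelled. Counts on Ncoa3, which encodes AIB1, were 110, 106 and 102 in J110 and 181, 199 and 186 in SSM3. Reads from the 3′ end see a transgene only where it carries that end of the gene, so these values do not check the labels, and every direction rests on them. Epcam had 2, 1 and 7 counts in J110 against 2376, 2404 and 2412 in SSM3, and the study's flow cytometry had found SSM3 cells positive for EpCAM protein. Epithelial markers (6 of 6 tested, 5 higher in SSM3) summed to between 3061 and 3196 CPM (counts scaled to library size) in J110 and between 12816 and 14147 CPM in SSM3. Mesenchymal markers (4 of 6 tested, all 4 lower in SSM3) summed to between 5699 and 6134 CPM in J110 and between 69.2 and 87.9 CPM in SSM3. Of markers of other cells, the 5 fibroblast genes summed to at most 1.98 CPM in any library, with Col1a2 and Lum at 0 throughout. The 5 leukocyte genes summed to between 29.2 and 35.0 CPM in J110, where Ptprc was at 0, and between 14.7 and 16.99 CPM in SSM3, where Ptprc had 2 counts in all. Endothelial genes summed to between 158 and 181 CPM in J110 through Cdh5, with Tie1 at 0, and to at most 0.425 CPM in SSM3. Of neuron markers, Snap25 had 1, 2 and 0 counts in J110 against 308, 404 and 389 in SSM3, and Rbfox3 was at 0 throughout. The guidance genes moved alongside the epithelial and mesenchymal markers, whose part in the values below was not tested. In these bulk cultures, fewer cells with a transcript and less of it per cell cannot be told apart.

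The lines differed in every guidance gene that could be tested, most of them lower in SSM3. Of the 69 genes, 11 had no count in any library, 8 had at most 3 counts in every library, 8 had more than 3 counts in a library but did not pass the filter on low counts, and 42 were tested. All 42 had an adjusted p below 0.05 (edgeR's quasi-likelihood test), 28 lower and 14 higher in SSM3, where 77.9% of all 12284 genes tested were called, 39.2% lower and 38.6% higher. A gene counted in 1 line alone passes the filter through that line and so had to differ. Among the 21 members with more than 3 counts in every library, 21 were called, 14 lower and 7 higher in SSM3, against 74.5% of all such genes. The lines did not overlap in any of the 42, which held for 79.6% of the genes tested and for 76.6% of those with more than 3 counts in every library. A log2 fold change of at least 1 in size was reached by 41 members, 27 lower and 14 higher, against 43.7% of the genes tested, and the exception was Plxnb2. Of the 21 members with more than 3 counts in every library 20 reached it, 13 lower and 7 higher, against 34.8% of all such genes. The median log2 fold change (log2 change below), SSM3 against J110, was -1.86 over the members tested, also with genes at 0 in one line set to their bound, and -0.014 over all genes tested. It was -1.30 over the 21 members with more than 3 counts in every library and 0.012 over all such genes.

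A gene was taken as expressed in a line when its mean was at least 5 CPM and each library had more than 3 counts. By this rule J110 expressed 29 of the 69 genes (42%) and SSM3 19 (27.5%), where the shares of all protein-coding genes were 43.6% and 42.5%. Both lines expressed 9 of the members, J110 without SSM3 expressed 20, SSM3 without J110 expressed 10, and 30 were expressed in neither. The shift was seen in ligands (15 in J110, 8 in SSM3) and in receptors (13 in J110, 10 in SSM3).

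**Figure D1:**
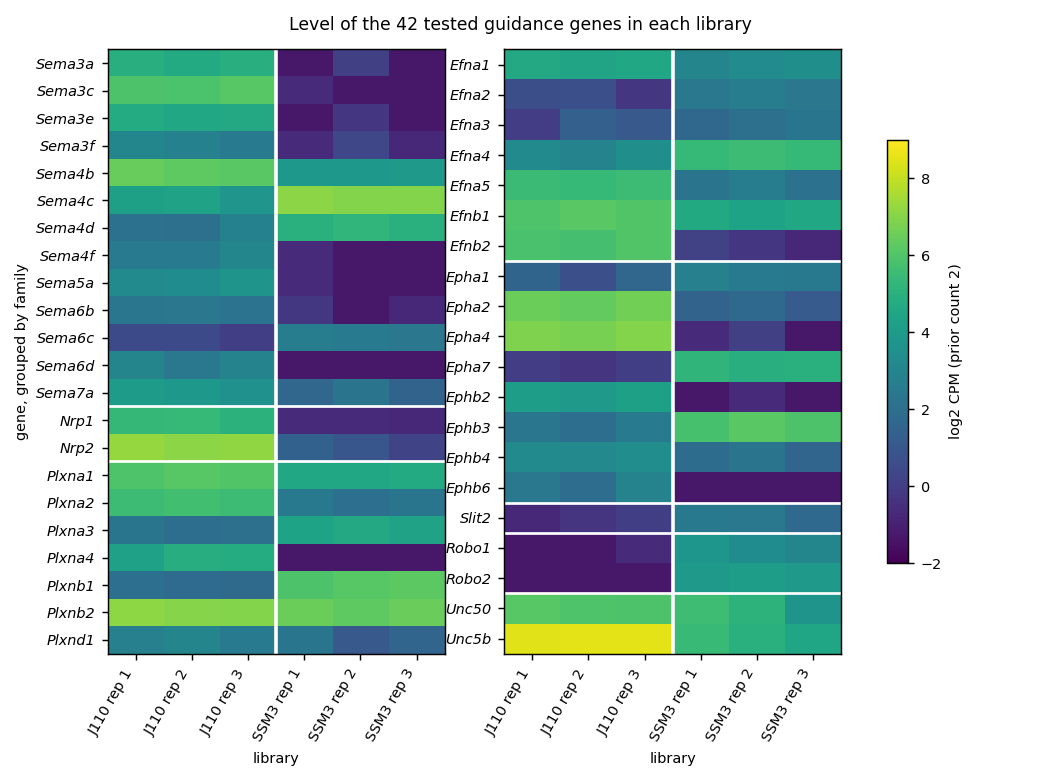
Heat map of log2 CPM (colour, prior count 2) in each of the 6 libraries for the 42 tested guidance genes, with white lines between families and between lines. The 28 genes lower in SSM3 are brighter in the 3 J110 columns than in the SSM3 columns. The reverse holds for 14, such as Sema4c, Plxnb1, Ephb3 and the Robos. Some genes are dim even in the line where they are higher.

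Class 3 semaphorins and neuropilins were counted in J110 and were close to absent from SSM3. Of 7 class 3 semaphorins, 4 were tested and all 4 were lower in SSM3. Sema3c (ENSMUSG00000028780, chromosome 5 of mm10 from 17574281 to 17730268), which binds both neuropilins and plexin-D1, had 313, 294 and 336 counts in J110 against 1, 0 and 0 in SSM3. It was thus the most counted class 3 semaphorin of J110, and the ratio of J110 to SSM3 was 892 (95% counting interval from 160 to 35277, adjusted p = 1.69e-13 from the edgeR test). Its fitted log2 fold change of -9.36 became -11.28 without SSM3 replicate 1, which held the single count. A rise in size is bound to follow when the library with all counts of the lower line is left out. The refitted value is then no estimate of the size of the difference, here and in the like cases below. Intervals of this kind cover counting error only.

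Sema3a, the founding axon repellent of the class and a ligand of Nrp1, had 155, 133 and 140 counts in J110 against 0, 3 and 0 in SSM3, a ratio of 135 (95% counting interval from 45.9 to 657). Sema3e, which acts on plexin-D1 without a neuropilin, had 140, 115 and 116 counts in J110 against 0, 2 and 0 in SSM3, a ratio of 176 (95% counting interval from 48.2 to 1455). All SSM3 counts of both genes fell in replicate 2. That library also held 41 counts on 19 genes that had at least 100 CPM in J110 and at most 3 counts in each SSM3 library, where replicates 1 and 3 held 15 and 7, and the part of such stray counts in the ratios was not tested. Without SSM3 replicate 2 the fitted log2 fold change went from -6.91 to -10.13 for Sema3a and from -7.21 to -9.92 for Sema3e, with no SSM3 count left. Sema3f, a ligand of Nrp2, had 41, 34 and 25 counts in J110 against 1, 4 and 1 in SSM3 (log2 change -3.90, SE 0.44, edgeR adjusted p = 5.88e-07), and the change was -4.82 without SSM3 replicate 2. Sema3b and Sema3d had at most 3 counts in any library and Sema3g had none.

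Both neuropilins and all A plexins but Plxna3 were lower in SSM3 as well. Nrp2 (ENSMUSG00000025969, chromosome 1 from 62703285 to 62818695) had 794, 696 and 693 counts in J110 against 10, 7 and 4 in SSM3, or means of 145 ± 7.72 against 1.5 ± 0.716 CPM (SD over 3 libraries, log2 change -6.59, SE 0.17, edgeR adjusted p = 4.13e-15). Nrp1, the co-receptor shared with VEGF, had 203, 206 and 161 counts in J110 and 1 count in each SSM3 library, a ratio of 180 (95% counting interval from 61.2 to 874). Neither neuropilin reached the expression threshold in SSM3. Among the plexins that pair with neuropilins, Plxna4 had 101, 145 and 132 counts in J110 against none in SSM3, so it was at least 37.8-fold lower there. Plxna2 had 240, 259 and 221 counts in J110 against 23, 17 and 22 in SSM3 (log2 change -3.45, SE 0.16, edgeR adjusted p = 8.25e-12). Plxna1 was also lower but still expressed in SSM3, with 321, 355 and 308 counts in J110 against 104, 113 and 130 in SSM3 (log2 change -1.42, SE 0.11).

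Plxna3 went against the other A plexins. It had 23, 18 and 18 counts in J110 against 93, 115 and 101 in SSM3 (log2 change 2.46, SE 0.20, edgeR adjusted p = 6.91e-09). Plxnd1, the receptor of Sema3e, had 34, 39 and 27 counts in J110 against 20, 8 and 13 in SSM3, and its adjusted p of 0.00245 became 0.266 when a change above 2-fold was asked for with glmTreat. SSM3 therefore held plexin transcripts of the A class, Plxna1 and Plxna3 above 5 CPM, without a neuropilin above that level.

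Membrane-bound semaphorins were split between the lines. Sema4c (ENSMUSG00000026121, chromosome 1 from 36548639 to 36558349), the ligand of plexin-B2, had 98, 100 and 62 counts in J110 against 608, 586 and 622 in SSM3 (log2 change 2.89, SE 0.12, edgeR adjusted p = 2.18e-12). Sema4d, the ligand of plexin-B1 and known in immune cells as CD100, had 20, 19 and 32 counts in J110 against 142, 177 and 157 in SSM3 (log2 change 2.82, SE 0.20). These class 4 ligands were thus several times higher in each SSM3 library. Sema4b lay on the other side, with 444, 389 and 347 counts in J110 against 63, 66 and 76 in SSM3 (log2 change -2.44, SE 0.11). Sema4f, not chosen by the rule for named genes and given for completeness, had 29, 27 and 38 counts in J110 against 1, 0 and 0 in SSM3.

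Of classes 5, 6 and 7, Sema6c alone was higher in SSM3. Sema5a, which carries thrombospondin repeats, had 48, 50 and 60 counts in J110 against 1, 0 and 0 in SSM3, a ratio of 149 (95% counting interval from 26.4 to 5941). Without SSM3 replicate 1 its fitted log2 fold change went from -6.78 to -8.71, with no SSM3 count left. Sema6d, a ligand of plexin-A1, had 39, 25 and 34 counts in J110 against none in SSM3, at least 9.76-fold lower there. The lipid-anchored Sema7a had 86, 71 and 55 counts in J110 against 12, 20 and 12 in SSM3 (log2 change -2.17, SE 0.26, edgeR adjusted p = 1.004e-06). Its receptor gene Plxnc1 did not pass the filter, with between 0 and 8 counts in any library. Sema6b was lower in SSM3 and Sema6c higher, each at under 6 CPM in the higher line.

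The B plexins, which receive class 4 semaphorins, differed in level from one another and between the lines. Plxnb1 (ENSMUSG00000053646, chromosome 9 from 109095389 to 109119917) had 19, 16 and 15 counts in J110 against 275, 328 and 380 in SSM3, or means of 3.32 ± 0.298 against 68.8 ± 7.22 CPM (SD over 3 libraries, log2 change 4.36, SE 0.16, edgeR adjusted p = 3.01e-13). Plxnb2 was abundant in both lines, with 728, 654 and 591 counts in J110 against 418, 358 and 452 in SSM3. Its difference (log2 change -0.60, SE 0.094, edgeR adjusted p = 1.91e-05) was the smallest of the 42, and with glmTreat, which asks for a change above 2-fold, it was no longer called (adjusted p = 1). Plxnb3 had 4, 5 and 5 counts in J110 against none in SSM3 and was not tested.

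**Figure D2:**
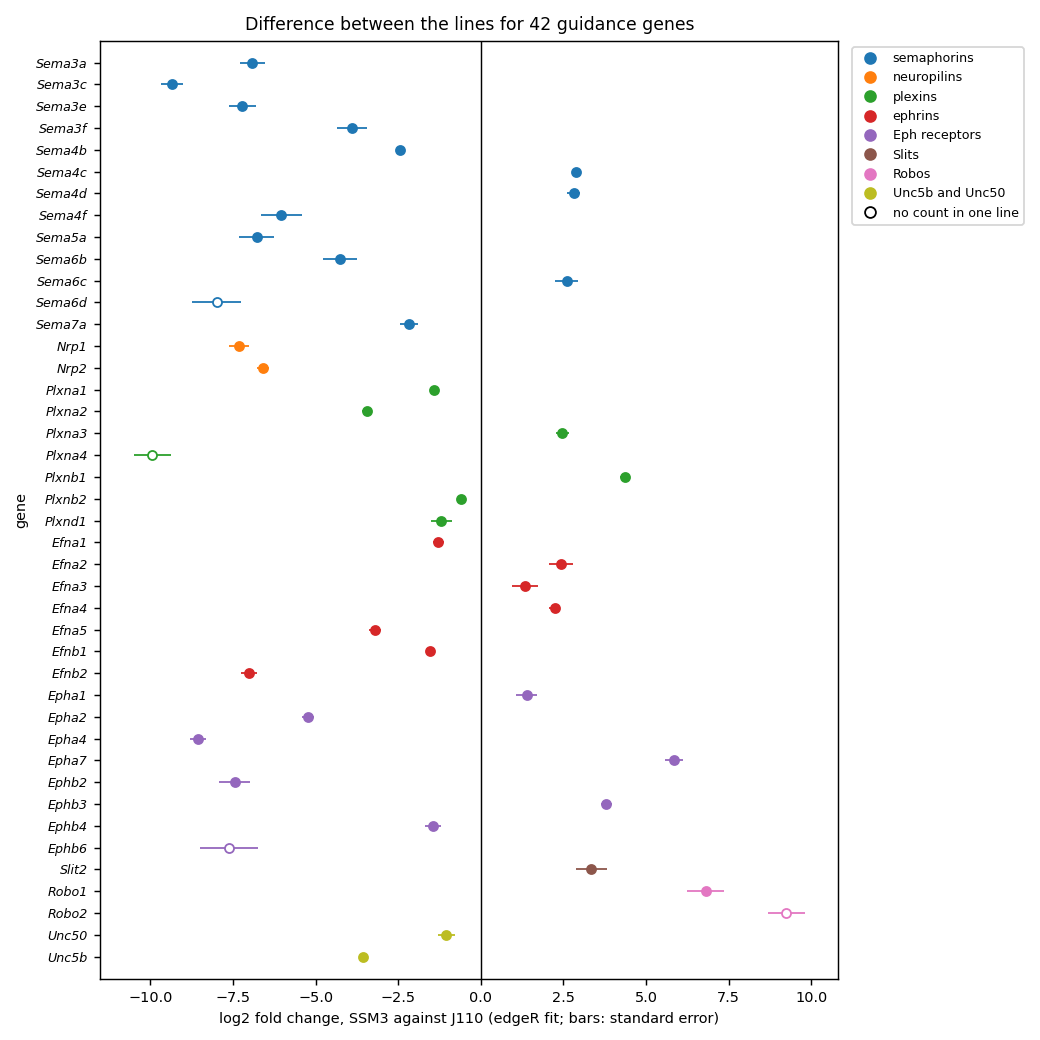
Log2 fold change, SSM3 against J110, of the 42 tested guidance genes from the edgeR fit, with bars for the standard error and colours for the family. Open circles mark genes with no count in one line, whose fitted value is not a bound. The 28 points left of 0 include every tested class 3 semaphorin and both neuropilins, and the 14 right of 0 include Plxnb1, Epha7, Slit2, Robo1 and Robo2.

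The lines expressed different Eph receptors. Of the 14, 8 were tested, 5 lower and 3 higher in SSM3. Epha4 (ENSMUSG00000026235, chromosome 1 from 77367185 to 77515088), the receptor that accepts ephrins of both types, had 610, 542 and 601 counts in J110 against 1, 3 and 0 in SSM3, a ratio of 415 (95% counting interval from 162 to 1524, adjusted p = 1.29e-14 from edgeR). The fitted log2 fold change of Epha4 was -8.57, or -9.80 without SSM3 replicate 2 and -7.98 without SSM3 replicate 3. Epha2, known for its high level in many carcinomas, had 471, 407 and 481 counts in J110 against 11, 14 and 9 in SSM3 (log2 change -5.23, SE 0.17, edgeR adjusted p = 7.13e-14). On the other side stood Epha7 (ENSMUSG00000028289, chromosome 4 from 28813131 to 28967499), with 3, 2 and 3 counts in J110 against 164, 137 and 156 in SSM3, a ratio of 60.4 for SSM3 to J110 (95% counting interval from 30.4 to 141). Epha1 was also higher in SSM3 (log2 fold change 1.39), but it shares exons with Zyx on the opposite strand, which had from 128 to 338 counts against 6 to 29 of Epha1, so its value is uncertain.

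The B receptors were divided as well. Ephb2 had 90, 73 and 89 counts in J110 against 0, 1 and 0 in SSM3, a ratio of 238 (95% counting interval from 42.4 to 9454). Without SSM3 replicate 2 its fitted log2 fold change went from -7.45 to -9.36, with no SSM3 count left. Ephb3 (ENSMUSG00000005958, chromosome 16 from 21204755 to 21223305) had 24, 18 and 25 counts in J110 against 245, 336 and 305 in SSM3 (log2 change 3.80, SE 0.17, edgeR adjusted p = 4.22e-12). J110 libraries thus had more Ephb2 and SSM3 libraries more Ephb3, with no overlap in either gene. Ephb4, the partner of ephrin-B2 in vessels, had 46, 44 and 49 counts in J110 against 15, 20 and 13 in SSM3 (log2 change -1.45, SE 0.25). Ephb6, which lacks kinase activity, had 25, 17 and 34 counts in J110 against none in SSM3, and is named beside the rule.

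All ephrin genes except Efnb3 were tested, and the A ligands were divided. Efna5 had 231, 207 and 218 counts in J110 against 19, 28 and 20 in SSM3 (log2 change -3.20, SE 0.17, edgeR adjusted p = 3.44e-11). Efna1, the high-affinity ligand of EphA2, had 127, 107 and 111 counts in J110 against 34, 45 and 54 in SSM3 (log2 change -1.30, SE 0.17). Efna4 was higher in SSM3, with 48, 36 and 52 counts in J110 against 182, 215 and 208 in SSM3 (log2 change 2.23, SE 0.16). Efna2 and Efna3 were higher in SSM3 too, at 5.14 and 3.70 CPM there. Both tested B ligands were lower in SSM3. Efnb2 (ENSMUSG00000001300, chromosome 8 from 8617434 to 8661242) had 299, 269 and 306 counts in J110 against 3, 2 and 1 in SSM3, a ratio of 138 (95% counting interval from 63.1 to 377), while Efnb1 had 325, 362 and 311 counts in J110 against 112, 97 and 116 in SSM3 (log2 change -1.54, SE 0.11).

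The proximal promoters of a receptor and ligand pair of J110 (Epha4 and Efnb2) and of the receptors of SSM3 (Epha7 and Ephb3) are shown as examples of Eph system genes held by one line and all but missing from or much lower in the other. Each is the 250 bases before a RefSeq transcript start in GRCm38.p6, 5′ to 3′ on the gene's strand, at chr1:77515089-77515338 (minus strand), chr8:8661243-8661492 (minus strand), chr4:28812881-28813130 (plus strand) and chr16:21204545-21204794 (plus strand). The Ephb3 window ends past the gene start given above, so its last 40 bases lie inside the gene as annotated by GENCODE. Capitals mark CACCTG, an E-box that Zeb and Snail repressors can bind, and GGTCA, the core of nuclear receptor sites, on either strand.
Epha4: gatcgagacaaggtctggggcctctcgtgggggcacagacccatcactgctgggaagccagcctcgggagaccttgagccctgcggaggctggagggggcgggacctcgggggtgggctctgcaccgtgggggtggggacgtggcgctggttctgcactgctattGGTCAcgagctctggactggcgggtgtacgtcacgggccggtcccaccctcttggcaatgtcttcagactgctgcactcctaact
Efnb2: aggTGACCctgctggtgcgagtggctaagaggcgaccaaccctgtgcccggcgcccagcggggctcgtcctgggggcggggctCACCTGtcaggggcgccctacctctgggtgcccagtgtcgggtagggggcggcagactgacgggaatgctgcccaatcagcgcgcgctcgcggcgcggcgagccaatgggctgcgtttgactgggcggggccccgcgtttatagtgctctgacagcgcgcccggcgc
Epha7: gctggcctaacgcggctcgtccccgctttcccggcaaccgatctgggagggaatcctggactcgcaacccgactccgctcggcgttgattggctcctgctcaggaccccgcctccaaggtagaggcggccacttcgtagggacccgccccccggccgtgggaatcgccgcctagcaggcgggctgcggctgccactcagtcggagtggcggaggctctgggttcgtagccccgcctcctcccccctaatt
Ephb3: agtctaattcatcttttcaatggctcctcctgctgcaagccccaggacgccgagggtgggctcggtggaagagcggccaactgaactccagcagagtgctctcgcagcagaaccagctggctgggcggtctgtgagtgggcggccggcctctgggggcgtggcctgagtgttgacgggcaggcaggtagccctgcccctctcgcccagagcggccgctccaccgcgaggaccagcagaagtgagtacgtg
Epha4 held 1 GGTCA match, Efnb2 held 1 match of each, and the windows of Epha7 and Ephb3 held neither. All 4 were rich in G and C, from 65.6% to 72.0%, with 14 to 27 CG dinucleotides each. RefSeq windows were found for 60 of the 69 members. CACCTG lay in 3 of 14 windows of genes higher in SSM3, in 3 of 25 of genes lower in SSM3 and in 17.1% of all 27025 promoters, while AGATAA, a site of Gata3 and its relatives, lay in 1 of 14, in 0 of 25 and in 10.3%. GGTCA lay in 1 of 14, in 12 of 25 and in 34.9%. No motif contains another, though matches may overlap by a few bases. The 3 motifs were chosen with the results known, and their shares are a description, with no test. Median G and C content was 65.0% in windows of genes higher in SSM3, 66.0% in those lower in SSM3 and 52.0% over all promoters.

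Robo1, Robo2 and Slit2 were counted in SSM3 and hardly at all in J110. Robo2 (ENSMUSG00000052516, chromosome 16 from 73891839 to 74411825) had no count in J110 and 65, 80 and 76 counts in SSM3, at least 24.8-fold higher there (adjusted p = 1.25e-09 from edgeR). Robo1, its neighbour on chromosome 16, had 0, 0 and 1 counts in J110 against 59, 46 and 40 in SSM3, a ratio of 153 (95% counting interval from 27.1 to 6094). The single J110 count lay in replicate 3, which held 44 counts on 33 genes that had at least 100 CPM in SSM3 and at most 3 counts in each J110 library, against 21 and 8 in replicates 1 and 2. Without that library the fitted log2 fold change of Robo1 went from 6.80 to 8.65, with no J110 count left. Their ligand Slit2, named after its values were seen, had 1, 2 and 3 counts in J110 against 23, 23 and 15 in SSM3, a ratio of 10.7 (95% counting interval from 4.66 to 30.4), at 4.33 ± 1.17 CPM (SD, n = 3) in SSM3. Robo3, a receptor of commissural axons, had 20, 14 and 9 counts in J110 against none in SSM3, and was not tested because it missed the filter. Slit1, Slit3 and the endothelial Robo4 had no count in any library.

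In the netrin system a receptor was counted with next to no ligand. Unc5b (ENSMUSG00000020099, chromosome 10 from 60762593 to 60831581), a dependence receptor that promotes cell death when netrin-1 is absent, had 1910, 1917 and 1800 counts in J110 against 187, 149 and 114 in SSM3. The means were 374 ± 5.58 against 32.0 ± 9.48 CPM (SD over 3 libraries), with no overlap (log2 change -3.56, SE 0.14, edgeR adjusted p = 5.06e-13). Ntn1 had from 1 to 5 counts in any library and Ntn4 7, 5 and 1 counts in J110 against none in SSM3, and neither was tested. Unc5a, Unc5d, Unc5cl and Ntn5 had no count and Unc5c had 2 in all. Unc50, which the symbol rule takes in although it is a Golgi membrane protein, had 360, 316 and 288 counts in J110 against 216, 159 and 62 in SSM3 (log2 change -1.04, SE 0.26, edgeR adjusted p = 0.00181), which was -0.65 without SSM3 replicate 3 and had an adjusted p of 0.0676 with DESeq2.

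**Figure D3:**
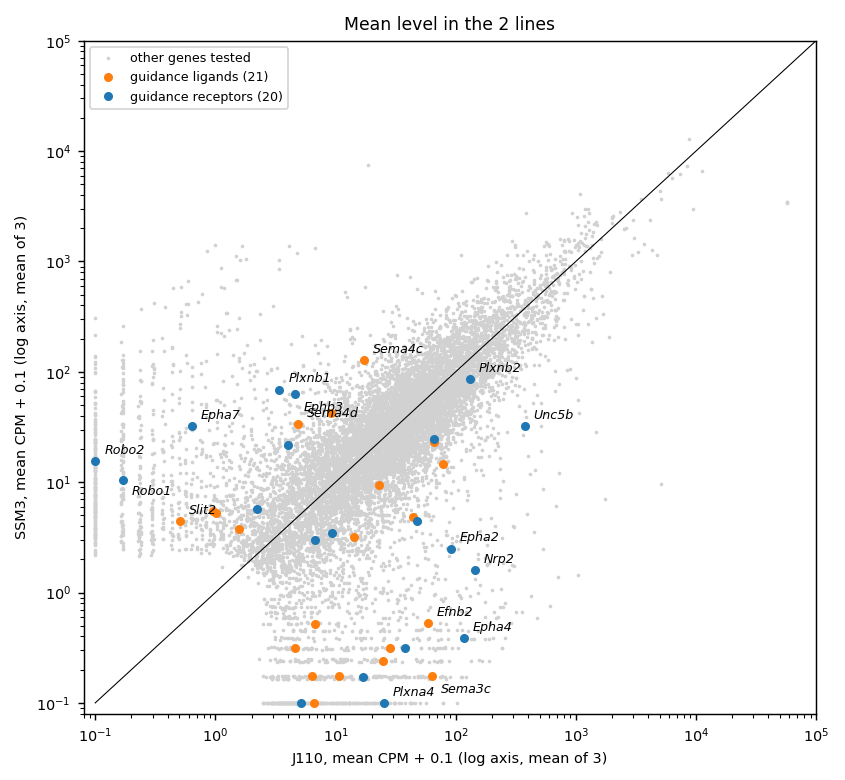
Mean CPM plus 0.1 in J110 (horizontal, log axis) against SSM3 (vertical, log axis) for 21 guidance ligands and 20 guidance receptors over all genes tested (grey), with the line of equal level. Robo2, Robo1, Epha7 and Plxnb1 lie above the line and Unc5b, Nrp2, Epha4 and Sema3c below it, while Plxnb2 lies near it.

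Selected textbook pairs of ligand and receptor, 53 in all, were then read within each line, a pair being present when both genes were expressed by the rule above. The list is partial, and the counts of pairs hold for it alone. Epha7 is listed with Efna5 only, while SSM3 expressed the A ligands Efna1, Efna2 and Efna4. Absent from the list are Epha1, Plxna3 and Sema6c, expressed in SSM3 alone, Sema4f and Ephb6, expressed in J110 alone, and Sema4b, expressed in both. J110 held 19 pairs and SSM3 held 4, and 1 pair, Sema4c with Plxnb2, was held by both. In J110 the 9 semaphorin pairs were Sema3a with Nrp1, Sema3c with Nrp1, Nrp2 and Plxnd1, Sema3e with Plxnd1, Sema3f with Nrp2, Sema4c with Plxnb2, and Sema5a and Sema6d with Plxna1. Its 5 ephrin-A pairs joined Efna1 and Efna5 to Epha2 and Epha4 and Efna4 to Epha2, and its 5 ephrin-B pairs joined Efnb1 to Ephb2 and Ephb4 and Efnb2 to Epha4, Ephb2 and Ephb4. The 4 pairs of SSM3 were Sema4c with Plxnb2, Sema4d with Plxnb1 and Plxnb2, and Efnb1 with Ephb3. Pairs share genes, so they are not independent of each other, and transcript levels do not show that the proteins meet.

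The count in SSM3 depended on genes just under 5 CPM. Slit2 stood at 4.33 CPM and Efna5 at 4.72 CPM in SSM3, and without SSM3 replicate 3 the pairs Slit2 with Robo1, Slit2 with Robo2 and Efna5 with Epha7 were added, which made 7. With a threshold of 1 CPM the counts were 28 in J110 and 12 in SSM3, and with 10 CPM they were 12 and 4. Across the lines, 6 pairs had a ligand expressed in J110 and its receptor in SSM3, among them Efna5 with Epha7 and Efnb2 with Ephb3, which neither line held alone by this rule. The reverse arrangement, with the ligand in SSM3 and the receptor in J110, was met by 7 pairs, among them Efna4 with Epha2 and Sema4d with Plxnb2.

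**Figure D4:**
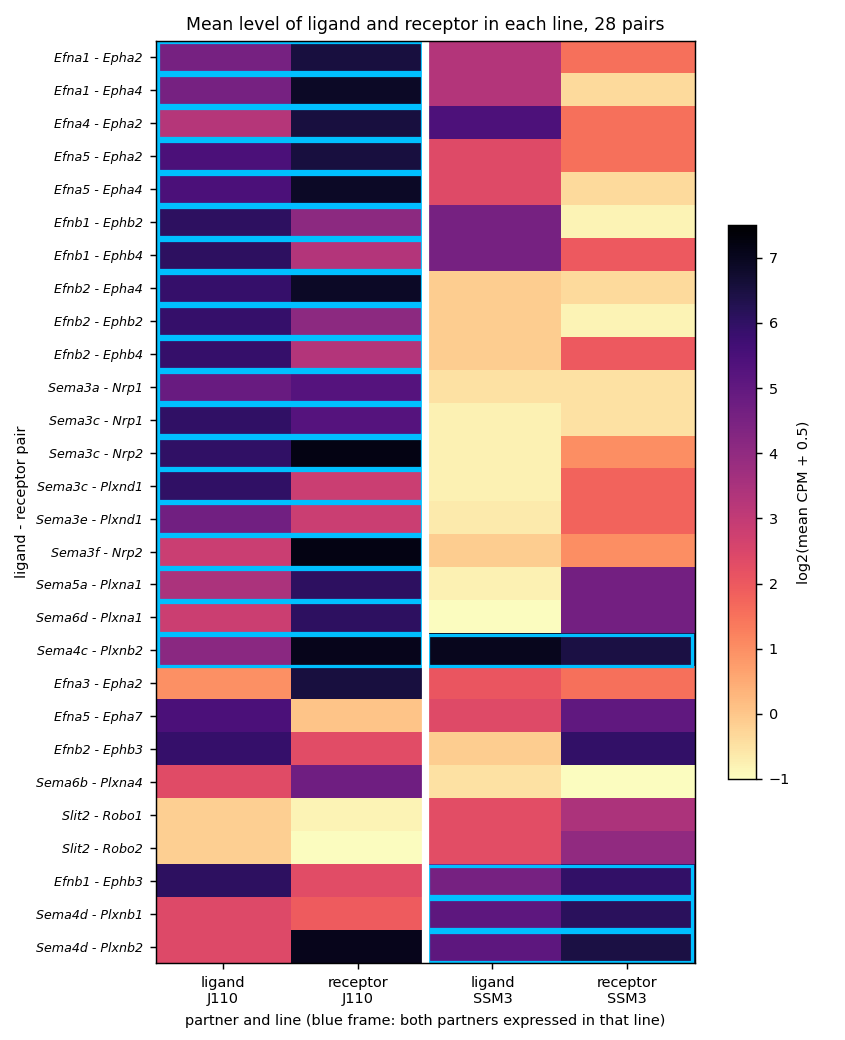
Mean level, as log2 of mean CPM plus 0.5 (colour), of ligand and receptor in J110 and SSM3 for the 28 pairs whose genes were both tested, with a blue frame where both were expressed in that line. Frames cover 19 pairs in J110 and 4 in SSM3, and the row Sema4c with Plxnb2 is framed in both.

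Genes that lie side by side did not always move together. On chromosome 3 Efna1, Efna3 and Efna4 lie in a row with gaps of 32.8 kb and 10.4 kb, and Efna1 was lower in SSM3 while Efna3 (log2 fold change 1.33) and Efna4 (2.23) were higher. Robo1 and Robo2, with a gap of 845.7 kb, were both higher in SSM3. Sema3a and Sema3e on chromosome 5, with a gap of 422.7 kb, were both lower, while Sema3d, 536.5 kb from Sema3a, was hardly counted in either line. Ephb6 and Epha1 on chromosome 6, with a gap of 738.0 kb, went opposite ways, the latter with the reservation given above. Of the 42 tested members, 9 share exons with another counted gene, and Epha1 was the 1 whose partner had more counts than the member in any library.

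Genes that act beside or downstream of these receptors moved in both directions. Of 66 such genes listed by role, 53 were tested, 20 were higher and 25 lower in SSM3 and 8 were not called, so 84.9% were called where 77.9% of all genes tested were, and their median log2 fold change was -0.28. Of 24 semaphorin co-receptors and effectors, 20 were tested, 7 higher and 9 lower. Rras2, a small GTPase of the R-Ras group, stood at 143 ± 12.1 CPM in J110 against 39.7 ± 1.82 in SSM3 (SD over 3 libraries), and Gipc1, a plexin adaptor, at 15.5 ± 3.01 and 62.8 ± 5.94 CPM. Itgb1 was lower (log2 fold change -0.47) and Cd72, a receptor of Sema4D, higher (0.51). Of the collapsin response mediators, named after their values were seen, Dpysl2 stood at 131 CPM in J110 against 19.4 in SSM3, and Dpysl5 had 3, 0 and 1 counts in J110 against 106, 77 and 96 in SSM3.

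Of the 9 Slit and Robo partners 7 were tested, 2 higher and 3 lower in SSM3. Srgap3, a GTPase activator that binds Robo1, had 359, 342 and 352 counts in J110, where Robo1 and Robo2 were all but absent, and 0, 3 and 0 counts in SSM3, a ratio of 332 (95% counting interval from 113 to 1613) whose SSM3 counts all lay in replicate 2. Its relative Srgap2 differed less, with a log2 fold change of -0.76. Flrt2, a ligand of Unc5 receptors, stood at 5.56 ± 1.74 CPM in J110 against 22.5 ± 3.38 in SSM3 (SD over 3 libraries), and Arhgap39 at 4.09 against 8.14 CPM.

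Eph and ephrin effectors were tested in 18 of 19 cases, with 8 higher and 8 lower in SSM3. Inppl1, the lipid phosphatase SHIP2 that binds EphA2, had 782, 712 and 645 counts in J110 against 2919, 3425 and 3541 in SSM3 (log2 change 2.29, SE 0.076, edgeR adjusted p = 8.20e-14). Adam10, the protease that sheds ephrins, was higher in SSM3 by a log2 fold change of 1.32. Src (-0.85) and Rasa1 (-0.87), which bind activated Eph receptors, were lower in SSM3 on the same log2 scale.

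Of the netrin and Unc5 effectors all 6 were tested, 3 higher and 3 lower in SSM3. Dapk1, the death-associated kinase that Unc5b engages, was named after its values were seen, with no count in J110 and 182, 179 and 173 counts in SSM3, at least 60.1-fold higher there (adjusted p = 1.16e-11 from edgeR). The line with more Unc5b was thus the one without Dapk1 counts. Trio (log2 fold change -1.55) and Maged1 (-0.82) were lower and Ptk2 (0.48) and Ablim1 (0.78) higher in SSM3. Of the receptors outside the symbol rule, Neo1, the neogenin receptor of netrins and repulsive guidance molecules, was lower in SSM3 (57.6 ± 1.57 against 18.8 ± 1.30 CPM, SD over 3 libraries), as was its ligand gene Rgmb (5.72 and 0.442 CPM), while Dcc had no count in any library.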

How the data were processed

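RNA from 3 biological replicates each of J110 and SSM3 cells had been made into QuantSeq 3′ libraries. Per the labels and the study's methods, the authors used bcl2fastq (2.17.1.14), cutadapt (2.1), HISAT2 (2.0.4) on mm10 and featureCounts of Subread (2.0.0), and deposited raw counts per gene, not normalised. The strand setting and the treatment of reads shared by genes are not given in the sources used here. Of 52636 identifiers, 52489 matched GENCODE M21 (GRCm38), which gave symbols, gene types and coordinates.

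Low counts were removed by filterByExpr, which left 12284 genes. These were fitted in edgeR (4.0.16, R 4.3.3, limma 3.58.1) after TMM scaling, by its quasi-likelihood F test, with Benjamini-Hochberg adjustment and a threshold of 0.05. CPM use total counts times TMM factors. A standard error is the log2 fold change divided by the square root of F. A count of 3 was the floor, from 0.578 to 0.668 CPM. A gene at 0 throughout a line gets a lower bound, the higher line's mean CPM over the highest floor of the other. With 1 to 3 counts in a library and no more in any, the ratio of summed counts over effective library sizes is given with an exact binomial 95% interval. DESeq2 (1.42.0), limma-voom and glmTreat were among the alternatives. Exon overlaps came from bedtools (2.31.1). Replicates differed by more than sampling noise (chi-square per degree of freedom from 2.21 to 5.62). A ribosomal RNA locus on chromosome 17 held from 15.1% to 17.2% of counts in J110 and from 0.779% to 1.27% in SSM3.

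Counts per library are given for members with an adjusted p under 0.05, no overlap, a log2 fold change of at least 1 in size and at least 10 CPM in the higher line, or in a pair expressed by a line. For effectors, the 2 most counted genes called in each direction per group are named. The members, lists, pairs and motifs were chosen with earlier results of these data known. On simulated counts for 12002 genes, 92 of 100 genes changed 2-fold and 99 of 99 changed 4-fold were recovered, with 8 false calls among 199. The simulation changed 200 genes, in equal numbers up and down, with a single dispersion for all genes. In the data 77.9% of genes tested were called, so these rates need not carry over. Part of the genotype of a line and 1 marker list in full are not reported here.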

Additional observations from a re-analysis of the deposited data

How the results depend on the processing

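Each of 34 named members was refitted under up to 19 alternatives. None changed direction, and 618 of the 622 values kept their side of the threshold. The exceptions were Plxnb2 and Plxnd1 with glmTreat, and Unc50 with glmTreat (adjusted p = 0.477) and DESeq2. Of counts over the list, 14 higher and 28 lower in SSM3, the former was 9 without members that share exons, and they were 6 and 11 with at least 10 counts in every library, a filter that removes genes absent from a line by construction. Leaving out each library in turn gave 14 higher throughout and from 28 to 29 lower, and leaving out J110 replicate 3 and SSM3 replicate 2, with the most stray counts, gave 14 and 29. All genes called went from 9566 to 4272 with glmTreat, and from 9275 to 9572 over single libraries left out. Effector counts, 20 higher and 25 lower, were 13 higher with glmTreat and 15 lower with the filter of 10 counts. Pairs in J110 were 12 with 10 CPM and from 19 to 20 over libraries left out, and pairs in SSM3 were 12 with 1 CPM and from 4 to 7 over libraries left out. Library size alone moved the median of all genes from -0.014 to 0.16 and left the calls of the list at 14 and 28. With the replicate number as a block the counts were 14 and 28 for the list and 9481 for all genes. The labels do not say that a number marks a shared batch. Same-numbered libraries deviated with correlations of 0.012, 0.016 and 0.027, and each library correlated best with its own number. Whether a number marks a shared batch was not tested. Depth limits what can be said of genes with few counts, and the floor of 3 counts is a chosen one.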
